A study of Homo sapiens with 2 samples.

Results

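The EGFR ligand cluster on chromosome 4 comprised the 4 members EPGN, EREG, AREG and BTC of the 19819 protein-coding genes considered, and it was followed in H3K27ac HiChIP of the colorectal cancer cell line HCT116. HiChIP ligates chromatin fragments that lie close to each other and then immunoprecipitates them, here with an antibody against H3K27ac, a histone mark of active enhancers and promoters, so that a count reports a contact involving marked chromatin. The members were taken as loops, that is pairs of different anchors with a count, whose anchors both overlapped a stretch of 700 kb from 75100000 to 75800000 of chromosome 4 on the hg19 build. An anchor is a stretch of chromatin at which contacts were counted, and 73 of the 250223 anchors lay in the region. They formed 442 loops in replicate 1 and 499 in replicate 2 (470.5 ± 40.3, SD, n = 2), out of 1017526 and 1156897 loops of up to 2 Mb in the genome.

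HCT116 is an established line from a human colorectal carcinoma. The data hold 1 condition, cells in culture medium with serum and no treatment named, in 2 replicates, and no condition was compared with another. The labels number the replicates without saying whether they came from separate cultures, so the spread between them may be technical. The total counts were 1885481 and 2131466. The files hold no expression values, so neither the level of the ligands nor the identity of the line could be read from them.

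The ligands of the epidermal growth factor receptor are made as precursors in the cell membrane, are released by proteases of the ADAM family and then bind receptors of the ERBB family on the same or on neighbouring cells. EPGN encodes epigen, EREG epiregulin, AREG amphiregulin and BTC betacellulin. Epiregulin and betacellulin also bind ERBB4, whereas amphiregulin and epigen act mainly through EGFR. In colorectal cancer, tumour levels of amphiregulin and epiregulin are studied as markers of the response to antibodies against EGFR.

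The genes lie in the order EPGN, EREG, AREG and BTC, with start sites at 75174187, 75230862, 75310853 and 75719733. EPGN, EREG and AREG are read on the plus strand and BTC on the minus strand. MTHFD2L, which encodes a mitochondrial enzyme of folate metabolism, ends at 75168816 just ahead of EPGN. On hg19, a further gene entry called AREGB starts at 75480629, between AREG and BTC. It lies in a near-identical copy of the stretch that holds AREG, described below. The sequence before the start sites of EREG and AREG is shown because that of AREG stood at 2 places of hg19 and that of EREG at 1. Both are the 250 bases upstream of the start site, 5′ to 3′, from the RefSeq promoter table (GRCh38.p14). They were placed on hg19 by exact match, EREG at chr4:75230612-75230861 and AREG at both chr4:75310603-75310852 and chr4:75480379-75480628, all on the plus strand. Capitals mark TATAAA (the TATA box), TGACGTCA (the cAMP response element) and GGGCGG (the GC box), each searched on both strands.
EREG: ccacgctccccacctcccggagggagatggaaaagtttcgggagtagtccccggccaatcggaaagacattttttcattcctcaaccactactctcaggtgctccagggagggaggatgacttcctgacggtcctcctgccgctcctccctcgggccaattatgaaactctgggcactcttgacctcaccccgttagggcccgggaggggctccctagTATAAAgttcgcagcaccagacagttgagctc
AREG: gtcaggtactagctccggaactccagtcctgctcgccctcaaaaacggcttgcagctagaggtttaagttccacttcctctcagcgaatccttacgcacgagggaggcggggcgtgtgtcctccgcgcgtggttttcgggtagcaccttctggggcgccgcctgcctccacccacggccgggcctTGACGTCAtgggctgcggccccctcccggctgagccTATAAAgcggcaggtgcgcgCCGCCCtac

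The TATA box stood 32 bases before the start site of EREG and 29 bases before that of AREG. It was also found 29 bases before the start site of EPGN and not in the window of BTC, while 10.7% of the 35116 RefSeq promoter windows of this length held these letters. AREG alone among the members held TGACGTCA, found in 1.65% of the windows, and GGGCGG, found in 42.6%. The GC content of the 4 windows was 38.0% in EPGN, 58.0% in EREG, 65.2% in AREG and 62.0% in BTC. These matches describe the letters only.

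EPGN, EREG and BTC each had anchors at the promoter, defined as the start site ± 2.5 kb, and AREG had none. Of all protein-coding genes, 16.9% had no anchor at the promoter. AREG lies within a block of 41.0 kb at chr4:75282465-75323487 that hg19 holds again, copied in the same orientation, at chr4:75452280-75493261. The parts of the block matched the copy with 99.907% identity over 24712 bp and 99.559% over 16327 bp. Directly ahead of the copy, hg19 has a run of N, unsequenced bases, of 24.9 kb.

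The anchors of the region stopped at the edges of the block and of its copy. No anchor lay between 75283737 and 75322902, a gap of 39.2 kb that held AREG, or between 75425932 and 75494557, a gap of 68.6 kb that held the run of N and AREGB. The median gap between neighbouring anchors of the region was 3.07 kb, and 1.06% and 0.506% of the gaps on the autosomes were as long as these. In the gap with AREG, 95.8% of all 50-base stretches occurred more than once in the genome, and in the gap with AREGB it was 90.3% of those without N. The reads were 50 bases long. In the anchors of the region the share of repeated stretches had a median of 0.878% and a maximum of 27.0%. The cutting site of MboI, the enzyme used to fragment the chromatin, occurred 91 times in the gap with AREG. Counts of AREG with any other anchor were therefore not measured here, and the absence of loops at AREG is no value for its contacts. Whether the repeats caused the missing anchors was not tested.

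The depth of an anchor is its count with other anchors within 2 Mb. The promoter of EREG had a depth of 48 in replicate 1 and 58 in replicate 2, that of EPGN 50 and 56, and that of BTC 27 and 48. The summed depths of 106 at EPGN and at EREG were higher than at 98.0% of promoters with an anchor, and the 75 at BTC higher than at 92.4%. The 106 at EREG included an intronic anchor that entered through a rounded start site. The start-site anchor of EREG alone had 77, between the 75 at BTC and the 82 at TGFA, another ligand gene, which exceeded 94.3% of promoters. The start-site anchor of EPGN alone had 44. The count between the 2 anchors of a promoter, 7 at EPGN and 2 at EREG, entered the sums of 106 at both anchors. Because anchors differ in width, the order changed per length. Per kb of anchor, EREG had a depth of 15.9, EPGN 10.6 and BTC 6.81, above 90.1%, 69.3% and 39.4% of promoters.

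Among the other ligands, receptors and releasing proteases of the pathway, 10 of 13 genes had a promoter anchor, with a depth per kb of 2.32 to 18.1 and a median of 6.60. The highest of these were EGFR, the receptor itself, with 18.1, and the ligand TGFA with 16.8, both above the 15.9 of the EREG promoter. That order rested on an intronic anchor of EREG that entered the promoter through a rounded start site, since the anchor with the start site alone had 19.2. EGF had a depth per kb of 6.30, HBEGF 7.48, NRG4 2.94 and NRG1 2.32. ADAM17, the main protease releasing amphiregulin and epiregulin, had 9.83 and ADAM10 6.44. The receptors ERBB3 and ERBB4 had 4.77 and 6.75. No anchor lay at the promoters of ERBB2, NRG2 and NRG3. Loops with a summed count of at least 5 were found at 4 of the 13 genes. TGFA had 3 such loops and NRG4, ERBB3 and ADAM10 had 1 each, while EPGN had 3, EREG 3 and BTC 2.

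The start-site anchor of EREG was chr4:75227273-75231276. A second anchor in an intron, chr4:75233397-75236077, belonged to the promoter only because the start site had been rounded to 0.1 kb, and lay outside it with the annotated start site. EPGN had the start-site anchor chr4:75171108-75175253 and the neighbouring anchor chr4:75175956-75181852 over the gene body. BTC had the single anchor chr4:75715154-75726172, which was 11.0 kb wide.

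Within the region, the counts of the EREG promoter summed to 40 and 48 in replicates 1 and 2, spread over 43 loops of which 9 were found in both replicates. The EPGN promoter had 33 and 34 over 36 loops, again 9 in both. The BTC promoter had 17 and 32 over 26 loops, 5 of them in both. Exact Poisson 95% intervals of the counts of EREG, 28.6 to 54.5 and 35.4 to 63.6, overlapped those of EPGN, 22.7 to 46.3 and 23.5 to 47.5. The start-site anchor of EREG alone had 29 and 38, a sum of 67, which EPGN reached with its 2 anchors together. The start-site anchor of EPGN alone had 11 and 16, a sum of 27. The median length of the loops was 89.3 kb at EPGN, 138 kb at BTC and 164 kb at EREG.

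The promoters of the ligands had few counts with each other, and few were expected. EPGN and EREG, 56.7 kb apart, shared 1 count in replicate 1 and none in replicate 2. From the distance and the depth of the anchors, 2.35 were expected over both replicates. EREG and BTC shared 0 and 1, against 0.330 expected. EPGN and BTC shared 0 in both, against 0.308 expected. The interval of the ratio of observed to expected count was 0.0108 to 2.37 for EPGN with EREG and 0.0768 to 16.9 for EREG with BTC, so counts both below and above the expected one were possible at this depth. A count of 0 allows up to 3.69 counts for EPGN with BTC. The 3 pairs that involve AREG were not measured.

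The most frequent partners of EREG were a distant one and its own neighbours. The start-site anchor of EREG had a count of 5 and 3 with chr4:75542196-75568786, which lies 326 kb away in the intergenic stretch between AREGB and BTC. This was above the expected 2.34, with a ratio of 3.42 (95% interval 1.48 to 6.75). With the flanking anchor chr4:75219568-75225638, only 6.67 kb away, the counts were 4 and 4, against 11.3 expected. With chr4:75238771-75245107, in an intron of EREG, they were 6 and 1, against 8.29. The next were 4 counts of the intronic anchor with the distant chr4:75542196-75568786, against 0.774 expected, and 4 counts of the start-site anchor with chr4:75592215-75601587, against 0.805. The start-site anchor also had 4 counts with the nearby chr4:75191428-75197187, against 2.09 expected, a ratio of 1.92 (0.522 to 4.91). Both of these loops of the start-site anchor stood on replicate 2 alone. No loop of EREG passed the test against the expected count, in which every loop of EREG had an adjusted p of 1 (one-sided Poisson test, Benjamini-Hochberg over all pairs).

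EPGN had its highest count with the anchor just past its end, chr4:75184633-75188251, with 8 in replicate 1 and 2 in replicate 2 from the gene-body anchor, and 10.4 expected. Its 2 anchors shared 2 and 5 with each other. The gene-body anchor then reached the same distant stretch as EREG, at 429 kb with chr4:75603685-75613043 (4 and 1, against 0.245 expected), at 418 kb with chr4:75592215-75601587 (1 and 3, against 0.561) and at 401 kb with chr4:75577865-75581188 (1 and 2, against 0.429). The ratio of the first was 20.4 with a 95% interval of 6.62 to 47.6, and its adjusted p was 0.758.

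BTC had low counts with all partners. Its highest were 2 and 3 with chr4:75399510-75411533, 315 kb away on the far side of AREGB, against 1.68 expected, and 3 and 2 with its own intron at chr4:75709573-75712825, against 3.60. Counts of 4 followed with chr4:75603685-75613043, with another intronic anchor at chr4:75700865-75703015, with chr4:75592215-75601587 and with chr4:75730001-75734776. Expected were 1.27, 2.37, 2.59 and 4.34, so that none of these differed from the expected count beyond its interval.

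**Figure D1:**
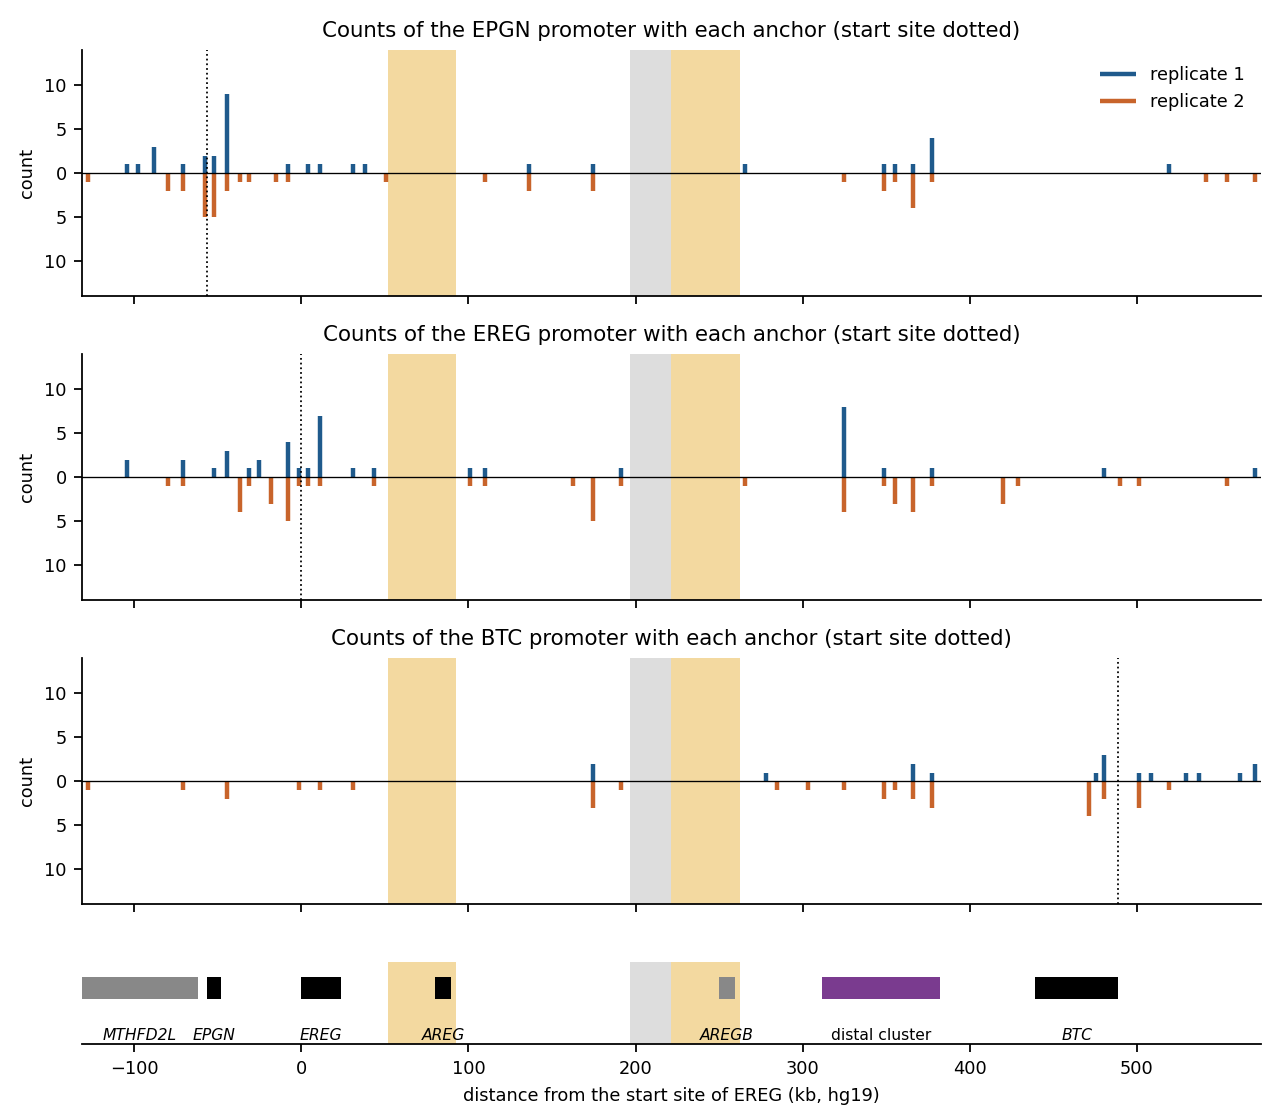
Counts of the EPGN, EREG and BTC promoters with each other anchor of the region, replicate 1 upwards and replicate 2 downwards, against the distance from the start site of EREG in kb. The dotted lines mark the start sites. EREG reaches a summed count of 12 with a distal anchor 325 kb away, while the counts of BTC stay at 5 or below.

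Some distal anchors were joined to more than 1 ligand promoter. The region had 73 anchors, including those at the promoters. With a count of at least 1 from each, 24 of them were shared. Of these, 11 were shared by EPGN, EREG and BTC together, 8 by EPGN and EREG, 2 by EPGN and BTC and 3 by EREG and BTC. How many anchors would be shared from depth and distance alone was not tested, nor was the share at other promoters. The number of 24 is therefore a description only. With a summed count of at least 2 from each of 2 promoters or more, 8 anchors remained. In the direction from MTHFD2L to BTC, the first of these were chr4:75156955-75163136 in MTHFD2L, with 3 counts each from EPGN and EREG, chr4:75184633-75188251 with 11 from EPGN, 3 from EREG and 2 from BTC, and chr4:75219568-75225638 with 2 from EPGN and 9 from EREG. These lie beside the promoters, and no interval of a ratio there lay above 1.

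The other 5 of the 8 lie beyond AREG. The anchor chr4:75399510-75411533 had 3 counts from EPGN, 5 from EREG and 5 from BTC, and 2.49, 2.96 and 1.68 were expected. The anchor chr4:75577865-75581188 had 3, 2 and 2, and chr4:75583411-75588292 had 2, 3 and 1. The anchor chr4:75592215-75601587 had 5, 4 and 4, against 1.01, 1.10 and 2.59 expected, and chr4:75603685-75613043 had 5, 2 and 4, against 0.455, 0.513 and 1.27. Of the ratios at these 5 anchors, those of EPGN with the last 2 had an interval above 1, 4.95 (1.61 to 11.5) and 11.0 (3.56 to 25.6). The gene-body anchor of EPGN gave 4 of the 5 counts with the former and all 5 with the latter, not its start-site anchor. The deepest anchor of the region, chr4:75542196-75568786, had 8 and 4 counts from EREG, against 3.11 expected over both, a ratio of 3.86 (1.99 to 6.74). From EPGN it had 0 and 1, against 3.27 expected, and from BTC 0 and 1, against 6.31, a ratio of 0.159 (0.00401 to 0.883).

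Apart from chr4:75399510-75411533, these anchors beyond AREG belong to a run of 6 neighbouring intergenic anchors from 75542196 to 75613043, called the distal cluster here, which spanned 70.8 kb and ended 107 kb before the start site of BTC. The cluster was delimited after the counts had been seen, as neighbouring anchors with a summed depth above 100, and no gene of the annotation overlapped it. The depth of its anchors ranged from 131 to 524, and the shallowest was deeper than 99.8% of all anchors. Per kb, chr4:75577865-75581188 was the deepest with 82.1, against 19.7 for the 26.6 kb wide chr4:75542196-75568786. Loops with the cluster held 55.9% of the counts of the region in replicate 1 and 56.8% in replicate 2.

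The strongest loops of the region joined anchors of the cluster with each other. The 3 highest joined chr4:75542196-75568786 with chr4:75577865-75581188 (28 and 32), the latter with chr4:75583411-75588292 (29 and 30), and chr4:75542196-75568786 with chr4:75583411-75588292 (29 and 29). Expected were 59.4, 65.5 and 46.6, so the summed counts of 60, 59 and 58 did not stand out from what the depth and distance of these anchors predict. The next were chr4:75399510-75411533 with chr4:75542196-75568786 (20 and 25, against 20.0 expected over both) and chr4:75542196-75568786 with chr4:75592215-75601587 (14 and 26, against 50.3). The loop from chr4:75399510-75411533, an intergenic anchor between AREG and AREGB, ran across the run of N and the copy. Its ratio of 2.25 fell to 1.25 when the copy and the run of N, 65.9 kb, were taken out of its length.

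**Figure D2:**
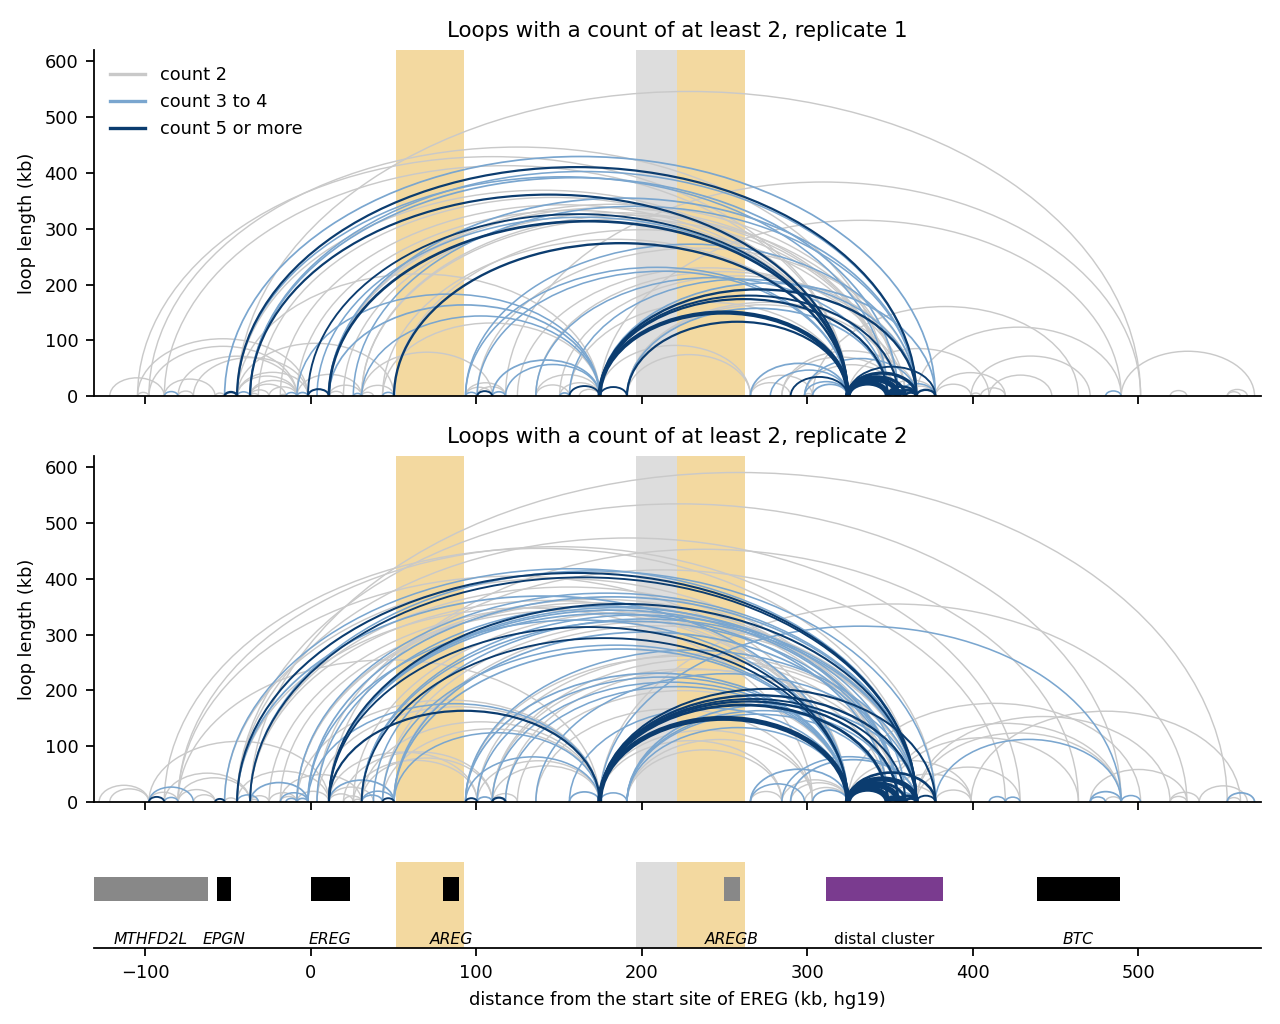
Loops of the region with a count of at least 2 in replicate 1 (top) and replicate 2 (middle), drawn as arcs whose height is the loop length in kb, against the distance from the start site of EREG in kb. Colours give the count. In both replicates the loops of 5 or more counts that are over 250 kb long run from the stretch between EPGN and the AREG block to the distal cluster; shading marks the AREG block, its copy and the run of N.

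The region stood out by long loops with high counts. A count of at least 5 was the limit that the study used for comparatively high signals. In the summed counts, 69 of 727 loops (9.49%, exact binomial 95% interval 7.46 to 11.9) reached 5, against 1.47% of all loops of up to 2 Mb. All 69 were found in both replicates, as were 96.2% of such loops in the genome. In either replicate alone it was 28 loops. The share of loops found in both replicates was 29.4% (26.1 to 32.9) in the region and 10.2% in the genome. The total count of the region, 1883, was 1.03 times the count expected, 1830, since the expected count already contains the depth of the anchors.

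The ratio of the share in the region to that in the genome grew with distance, from 2.83 in the shortest class to 151 in the longest. The shares make no allowance for the depth of the anchors. With depth and distance included, all pairs of the region from 250 to 700 kb had 2.15 times their expected count, and 1.25 times without the cluster. Below 20 kb, 22.4% of the loops of the region reached 5 counts, against 7.92% of all loops. From 20 to 100 kb it was 5.66% against 0.996%, and from 100 to 250 kb 7.73% against 0.197%. From 250 to 700 kb it was 18 of 214 loops, 8.41% (5.06 to 13.0), against 0.0557% of all loops. Of these 18 loops, 17 ended in the distal cluster, and the other one joined chr4:75399510-75411533 with the promoter of BTC. Set against 3583 windows of 700 kb on the autosomes, of which the median held 0 such long loops, 1 window held 18 or more. The region did not have more anchors than other windows, 73 against a median of 78, while its count of 1883 stood against a median of 481 and was reached by 12 windows.

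**Figure D3:**
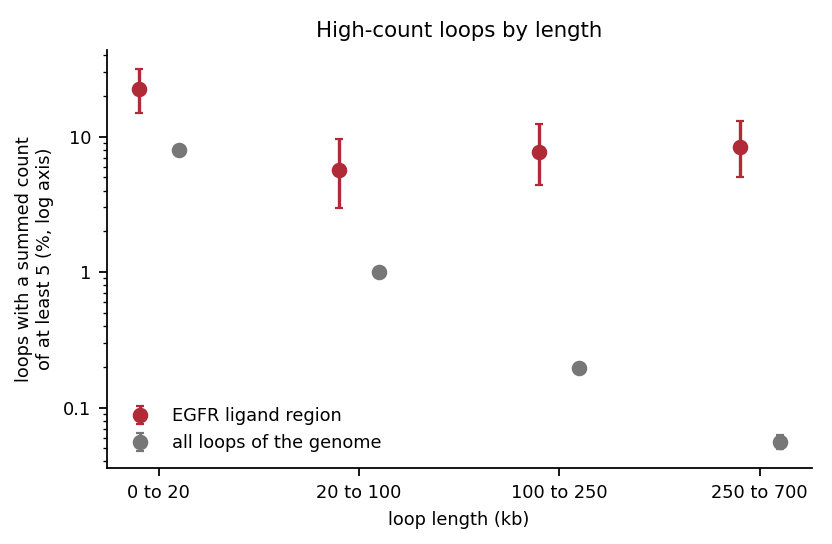
Share of loops with a summed count of at least 5, in percent on a log axis, by loop length in kb, for the EGFR ligand region and for all loops of the genome, with exact binomial 95% intervals. The share falls with length in the genome, from 7.92% to 0.0557%, while in the region it is 8.41% in the longest class. No allowance is made for the depth of the anchors.

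Only 1 loop of the region passed the test against the expected count with summed counts. It joined the anchor just past the end of EPGN, chr4:75184633-75188251, with chr4:75592215-75601587 in the distal cluster over 410 kb. Its counts were 7 and 6, against 0.942 expected over both, a ratio of 13.8 (95% interval 7.35 to 23.6) with an adjusted p of 0.000175. In the genome, the test called 14 anchor pairs, 2.74e-05% of all pairs of up to 2 Mb. In either replicate alone no loop of the region passed. All pairs of the region from 250 to 700 kb together had 2.15 times their expected count, for which the test made no allowance. Whether the loop would pass against such a raised level was not tested. With an expected count from distance alone, 59 loops of the region passed, against 0.0104% of all pairs. Once the depth of the anchors was included, 1 of them was left.

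The intronic anchor of EREG at chr4:75238771-75245107 had the highest count among the long loops, 10 and 5 with chr4:75542196-75568786 (3.83 expected), and 4 and 6 with chr4:75592215-75601587 (1.30 expected). Their ratios were 3.92 (2.19 to 6.46) and 7.71 (3.70 to 14.2), and their adjusted p were 0.950 and 0.395. An anchor at the near edge of the AREG block, chr4:75278826-75283736, had 8 and 4 with chr4:75542196-75568786, against 3.07 expected.

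Summed over its 6 anchors, contact with the distal cluster differed among the ligand promoters. EREG had 10 counts in replicate 1 and 13 in replicate 2, against 6.68 expected over both, a ratio of 3.44 (2.18 to 5.16). BTC, which lies closer, had 3 and 9, against 14.7 expected, a ratio of 0.819 (0.423 to 1.43), so the intervals of EREG and BTC did not overlap. EPGN had 7 and 9, against 6.55, a ratio of 2.44 (1.40 to 3.97), whose interval overlapped that of EREG and only narrowly that of BTC. With the start-site anchor alone, the ratio of EREG was 2.80 (1.53 to 4.69), or 2.27 (1.24 to 3.80) without the copy and the run of N in the distance, and the last interval overlapped that of BTC. These intervals cover counting error only, and as the cluster was delimited on the same counts, they are a description and no test. Because the expected counts of each cluster anchor were balanced to its depth, the ratios of EREG and BTC are also not independent of each other.

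The EPGN promoter was itself divided. Its start-site anchor had 0 and 1 counts with the cluster, against 2.88 expected, a ratio of 0.347 (0.00878 to 1.93). The gene-body anchor beside it had 7 and 8, against 3.66, a ratio of 4.10 (2.29 to 6.76). The 7 anchors on the far side, in MTHFD2L, had a ratio of 1.39 (0.925 to 2.01).

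The ratios followed the position along the region more than the genes. The 18 anchors from EPGN to the AREG block had 113 and 137 counts with the cluster, against 71.6 expected over both, a ratio of 3.49 (3.07 to 3.95), and at 16 of them the interval lay above 1. The highest ratios were 5.37 (2.45 to 10.2) at chr4:75233397-75236077 and 4.95 (3.55 to 6.71) at chr4:75238771-75245107, both in introns of EREG. The 12 anchors between the AREG block and the run of N had a ratio of 2.35 (2.06 to 2.67). The 6 anchors between the copy and the cluster had 0.842 (0.652 to 1.07), and the 24 anchors on the side of BTC 0.592 (0.476 to 0.727). Anchor weights were balanced so that the expected counts of each anchor sum to about its depth. A ratio above 1 on 1 side of the cluster therefore lowers the ratios elsewhere, and the sides are not separate observations. Without the EREG promoter, the other 16 anchors from EPGN to the AREG block had a ratio of 3.50 (3.06 to 3.98), against 3.44 at EREG. Without the BTC promoter, the other 23 anchors on its side had 0.568 (0.450 to 0.708), against 0.819 at BTC.

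**Figure D4:**
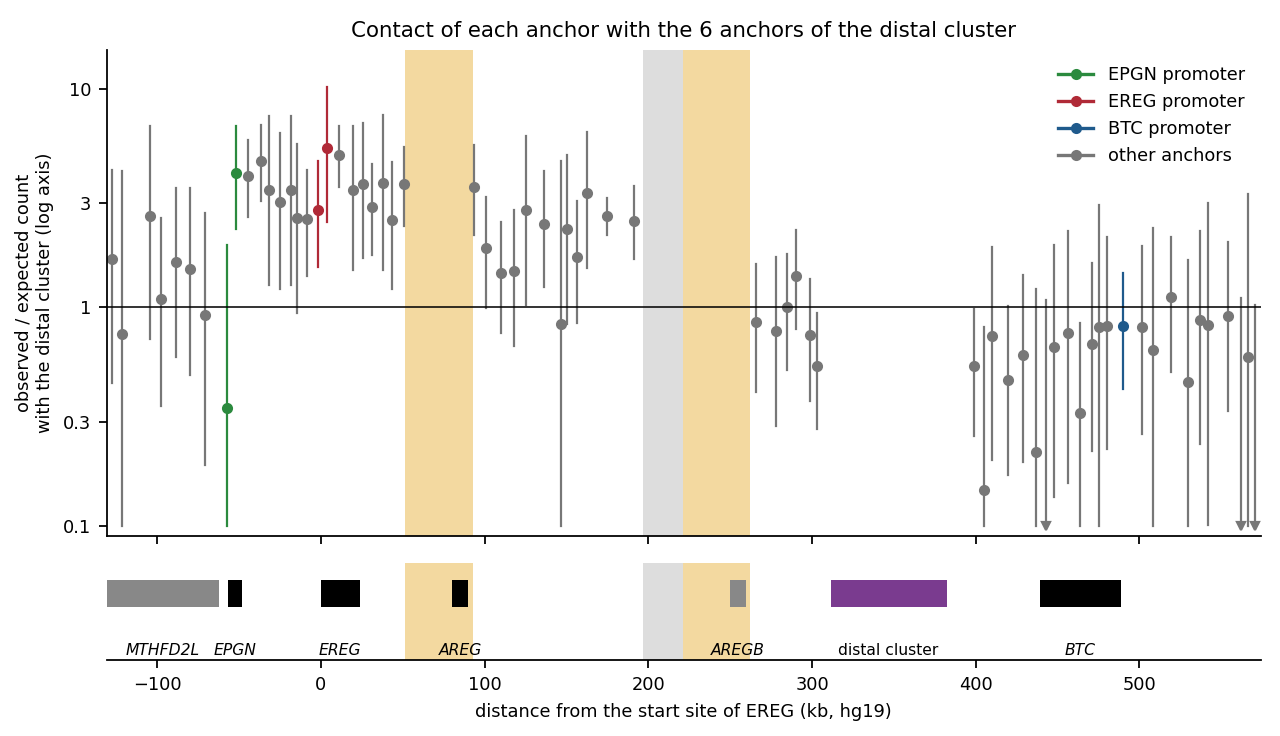
Observed over expected count of each anchor with the 6 anchors of the distal cluster, summed over both replicates, on a log axis with exact Poisson 95% intervals, against the distance from the start site of EREG in kb. Triangles at the lower edge are anchors with a count of 0 and lines reaching that edge are cut there. The 17 anchors from the EPGN gene body to the AREG block have a joint ratio of 3.62, the 24 on the side of BTC 0.592.

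Both replicates gave this order. The ratio of the anchors from EPGN to the AREG block was 3.47 in replicate 1 and 3.63 in replicate 2, that of the anchors on the side of BTC 0.485 and 0.693, and that of the EREG promoter 3.51 and 3.48. Part of the pattern moved with the copy in hg19. All contacts of EPGN and EREG with the cluster cross the copy and the run of N, and those of BTC do not. Whether the cells hold the copy was not tested, so distances across it may be too long on hg19. With these taken out of the distance, the ratio became 2.78 (1.76 to 4.17) for both EREG anchors, 2.13 (1.22 to 3.46) for EPGN, 2.86 (2.52 to 3.24) for the 18 anchors and 1.57 (1.38 to 1.79) for the 12 anchors beyond the AREG block, with the order kept. Loop length also moved with the ratio. Over all pairs of the region it was 0.696 below 20 kb, 1.30 (1.18 to 1.43) from 100 to 250 kb and 2.15 (1.95 to 2.37) from 250 to 700 kb, and 1.25 (1.04 to 1.49) in the last class without the cluster. EREG lies in the last of these classes from the cluster and BTC mostly in that of 100 to 250 kb, and the part of loop length in their difference was not tested.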

How the data were processed

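Per the labels, HCT116 chromatin was fixed, digested with MboI, religated, immunoprecipitated for H3K27ac and sequenced. The authors processed the reads with HiC-Pro and hichipper, versions and anchor settings not given in the sources used here, on hg19, and deposited raw counts per pair of anchors of a chromosome for each replicate, with no normalization. Counts of an anchor with itself were left out here.

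Loops joined different anchors whose midpoints lay within 2 Mb. The expected count came from 60 distance classes and anchor weights balanced in 20 rounds over all 51094602 pairs of the genome, leaving the tested pair out of both depths (offset 0.5). The one-sided Poisson test was adjusted by Benjamini-Hochberg over all of these pairs, with adjusted p under 0.01. The procedure was tried on counts simulated from the fitted expectation of chromosome 4, with single pairs raised. That simulation held no regional rise with distance, so it cannot show how the test behaves for the long loop that passed. Counts have exact Poisson and shares exact binomial (Clopper-Pearson) 95% intervals. Without molecular identifiers these cover counting error only, and most loops of the region had a count of 1 (67.6% and 66.1%), so single loops are imprecise. Over the 3189 loops reaching 10 counts in sum, chi-square per degree of freedom between replicates was 1.05 (chi-square p = 0.0305), little above sampling noise. Over the 25 such loops of the region it was 1.21 (chi-square p = 0.215). Both replicates were counted in n.

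Genes came from GENCODE release 44 on GRCh37, repeats from all 50-base stretches of that genome and the AREG copy from BLAST+ 2.17.0. All 4 members matched the RefSeq promoter table. Positions are counted from 1. The members, the pathway list and the rules for naming loops were chosen with earlier results of these data known. Named were the loops between ligand promoters, the 5 highest partners of each, shared anchors with summed counts of at least 2, loops past the test and the 5 highest loops. The long loops of the anchor in EREG and of the anchor at the edge of the AREG block, and the distal cluster, were singled out after their values were seen. Alternatives were the membership of the region, the minimum count, the promoter width, the start sites, the expectation, the way distance is measured, the threshold, repeated anchors and each replicate left out. Python 3.11.15, numba 0.67.0, scipy 1.17.1, pandas 2.3.3, numpy 2.4.6, pysam 0.24.0 and matplotlib 3.10.9 were used.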

Additional observations from a re-analysis of the deposited data

How the results depend on the processing

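Of 43 alternative values for 10 results, 23 were counted as similar to the reported ones. These included the promoter count of EREG, which fell from 88 to 67 with the start site ± 1 kb or the annotated start site. They also included the shared distal anchors, which fell from 24 to 17 with ± 1 kb and to 18 without replicate 1. The mean of 470.5 loops became 156 with a count of at least 2. Of the loops of 5 or more counts, 28 to 28 were left without a replicate, since a sum of 5 is then harder to reach. The loops above the expected count, 1 in the summed counts, became 59 with distance alone, 2 with distance between inner edges, the second being chr4:75399510-75411533 with chr4:75542196-75568786, and 0 to 0 in single replicates. With the copy and the run of N taken out of the distance, chosen after seeing the data, 1 was left. The promoter counts fell by construction in single replicates, from 67 to 33 to 34 at EPGN, from 88 to 40 to 48 at EREG and from 49 to 17 to 32 at BTC, and EPGN had 27 with the start site ± 1 kb. The summed count of 2 between ligand promoters became 1 with ± 1 kb and 1 to 1 in single replicates, and its ratio to the expected count, 0.669, became 1.69 with distance alone. The 24 shared distal anchors became 8 with counts of at least 2 and 12 to 18 in single replicates. The count of shared anchors was 24 as well without anchors over 10% repeated and, chosen after seeing the data, with annotated start sites. No paired analysis was possible because there was 1 condition. Depth limits single loops: most had a count of 1, and AREG had no anchor.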
